A study of Mus musculus with 2 samples.

Results

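The genes described here are 53 germline genes, matched by symbol among the 24354 genes of the deposited expression table. They comprise 16 genes of the piRNA pathway, 20 meiosis genes, 10 spermatogenic genes, 6 genes of germ cell specification and maintenance, and Mov10, a helicase gene used in somatic cells that is the paralogue of the piRNA gene Mov10l1. By general knowledge of the literature, 20 of the 53 were marked as genes whose promoters are methylated and silent in somatic cells, and the other 33 were not. The list of 20 was drawn up with earlier results of these data known, and DNA methylation was not measured.

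The libraries came from mouse embryonic stem cells (ESCs) that were differentiated toward mesoderm. Control ESCs were established from Ino80 2f/2f blastocysts, which carry a conditional Ino80 allele, and inducible knockout ESCs from Ino80 2f/2f;ROSA26-CreER blastocysts, in which a tamoxifen-activated Cre is made from the ubiquitous ROSA26 locus. The sample labels call the control WT and the other Ino80 knockout. The control line thus carried no CreER, and the lines came from different blastocysts, which cannot be told apart from the loss of Ino80. Both lines formed embryoid bodies (EBs), which were attached on day 4, and from the next day both received differentiation medium with BMP4 and 0.5 µM 4-OHTM for 7 days. One library of poly(A) RNA was sequenced per condition, here called Diff–CONT and Diff–iKO, so no difference has a replicate check and no p-value is given. In such bulk libraries, fewer cells of a type and less RNA per cell cannot be told apart.

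Germ cells use a set of genes that other cells keep off. The piRNA pathway loads small RNAs onto PIWI proteins, with Tudor domain proteins and helicases as partners, and represses transposons. Meiosis genes build the cohesin rings, chromosome axes and synaptonemal complex that hold homologous chromosomes together during recombination. Many of these genes have promoters rich in CpG that become methylated as the embryo implants, and a repressor complex named PRC1.6, which holds MGA, MAX and E2F6, binds E-box and E2F sites at a number of them in ESCs. Cultured ESCs are known to transcribe some germline genes at low levels.

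Expression was given as FPKM, the fragments of a gene scaled for transcript length and library size. The FPKM steps of low genes corresponded to about 30000000 fragments for Diff–CONT and 22400000 for Diff–iKO, and 81.1% of the low values were whole multiples of a fragment in both. From the recovered fragments each log2 ratio was given an exact (Clopper-Pearson) 95% interval, written here as the counting interval, which covers counting error only. Ino80, the targeted gene, was not lower in the library labelled Diff–iKO, where its FPKM was 10.3, than in the one labelled Diff–CONT, where it was 8.90 (log2 ratio 0.21, counting interval 0.11 to 0.31). Labels are therefore used only as names, and higher or lower always refers to the library labelled Diff–iKO compared with that labelled Diff–CONT. A gene-level FPKM does not resolve a deleted exon. Another difference between the libraries lay in Xist, the RNA of the inactive X chromosome, at 34 fragments in Diff–CONT and 1430 in Diff–iKO.

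Members marked as methylation-silenced, on a list drawn up with earlier results known, were almost all higher in Diff–iKO. The other members went both ways and were more often higher than lower. Among the 20 silenced members, 18 had at least 10 fragments over the libraries, and the counting interval lay above 0 for 17 of them, below 0 for 0, and across 0 for Brdt. Among the other 33, 26 had at least 10 fragments, with 16 higher, 5 lower and 5 across 0. Over all 15363 genes with at least 10 fragments, 34.8% were higher and 36.6% lower by this measure. Of the 17, 6 (Fkbp6, Sycp1, Syce1, Tex11, Tex101 and Slc25a31) had fewer than 10 fragments in Diff–CONT and were counted only through Diff–iKO. When at least 10 fragments were required in Diff–CONT itself, 11 of 12 silenced members were higher and 0 lower, and 13 of 20 other members were higher and 5 lower, against 34.2% and 38.4% of 14630 genes. The 18 silenced members all had 10 to 1000 fragments, a class in which 27.1% of the 7456 genes were higher and 33.1% lower. In the same class, 14 of 21 other members were higher and 3 lower. The members without 10 fragments were Asz1 and Tuba3b of the silenced genes and 7 of the others. On a stricter list of 11 silenced genes, 9 of 10 counted genes were higher and 0 lower. The members outside that stricter list had 24 of 34 higher and 5 lower. With 10 fragments required in Diff–CONT, these counts were 7 of 8 and 17 of 24 higher.

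Over the 9 silenced members whose mean FPKM reached 1, the median log2 ratio of FPKM + 0.1 was 2.67, with a range from 1.52 to 3.46. Over the 18 other members that passed the same filter, the median was 0.50 and the range reached from -1.90 to 2.46. The median of all 13145 genes that passed was -0.01. All 9 silenced members except Ddx4 and Tex19.1 had FPKM under 1 in Diff–CONT, so they passed the filter through Diff–iKO and had to differ, and nothing is read from the gap between the medians. With an added pseudocount of 1 the silenced median became 1.40. The plot of FPKM by member shows how low most of these genes were, since 20 of the 53 did not reach an FPKM of 1 in either library.

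**Figure D1:**
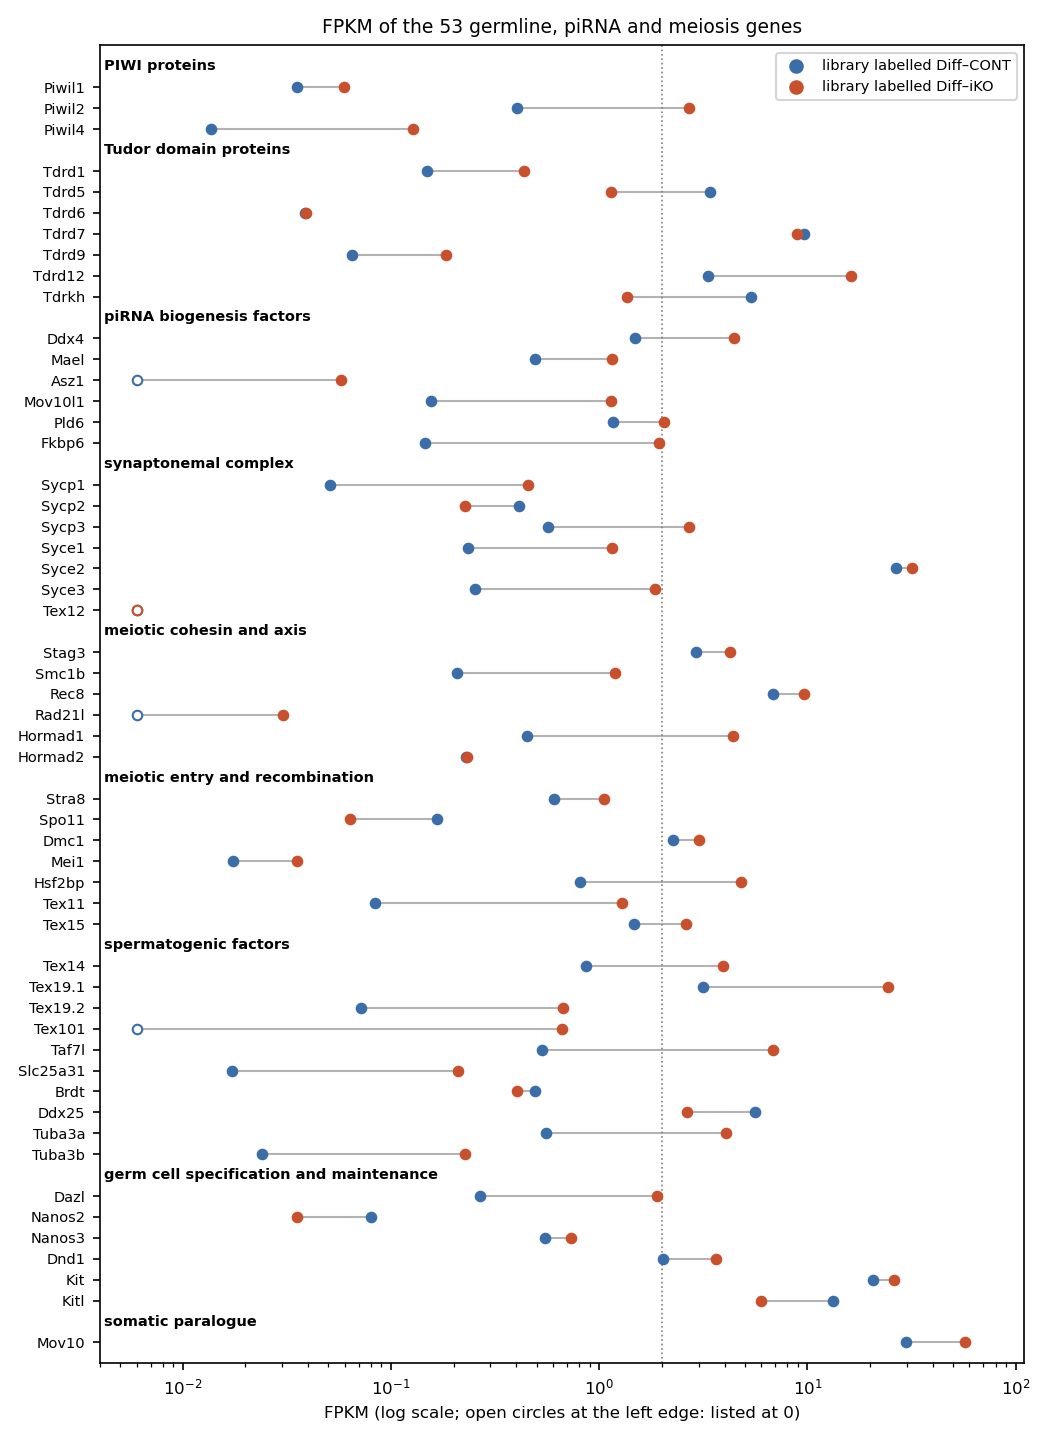
FPKM (log scale) of each of the 53 members in Diff–CONT (blue) and Diff–iKO (red), grouped by role, with 1 library per condition. Open circles at the left edge are values listed at 0, and the dotted line marks an FPKM of 2. Most red points lie to the right of the blue ones, while those of Tdrd5, Tdrkh, Ddx25 and Kitl, and to a lesser extent or on few fragments Tdrd7, Sycp2, Spo11, Brdt and Nanos2, lie to the left.

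The study's thresholds, FC ≥ 2 and FPKM ≥ 2, were read here as FPKM ≥ 2 in at least 1 library, which 24 members reached. As higher, 10 were past this cut-off, namely Piwil2, Tdrd12, Ddx4, Sycp3, Hormad1, Hsf2bp, Tex14, Tex19.1, Taf7l and Tuba3a, against 6.73% of 12376 genes with enough FPKM. As lower, 4 were past it, namely Tdrd5, Tdrkh, Ddx25 and Kitl, against 8.39% of all genes. The silenced members made up 7 of the 10 higher genes and 0 of the 4 lower genes. Of those 7, only Tex19.1 had an FPKM of at least 2 in Diff–CONT, so the other 6 passed through Diff–iKO, as did Hsf2bp and Tex14 of the members outside the list. With the FPKM minimum set at 0.5, 36 members could be counted, of which 20 were higher and 4 lower, against 9.03% and 10.8% of 14660 genes. Of those 20, 12 were under 0.5 in Diff–CONT and passed through Diff–iKO alone, so nothing is read from this count.

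The silenced members with the most RNA were Tex19.1, Taf7l, Ddx4 and Hormad1. Tex19.1, which acts against retrotransposons in germ cells and placenta, lies on chromosome 11 from 121146143 to 121148319 (GRCm38). Its FPKM was 3.15 in Diff–CONT and 24.3 in Diff–iKO, a 7.70-fold difference (log2 ratio 2.94, counting interval 2.69 to 3.21). Taf7l, a germ cell paralogue of a general transcription factor subunit on the X chromosome, was at 0.533 and 6.86 FPKM, 12.9-fold apart (log2 ratio 3.68, 3.12 to 4.30). Hormad1, a protein of the meiotic chromosome axis, lies on chromosome 3 from 95559677 to 95587671 and had 16 fragments in Diff–CONT and 118 in Diff–iKO (log2 ratio 3.28, 2.54 to 4.16). In each of these genes the value in Diff–CONT was low but above 10 fragments, and the intervals lay above 2-fold.

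Promoters, as RefSeq gives them on GRCm38.p6 with 250 bases before and 50 after the start, are shown for a few higher silenced members, with and without the motifs that PRC1.6 factors are known to bind. Letters in capitals mark the E-box CACGTG, which reads the same on both strands, and the E2F-type motif GCGGGA or its reverse complement TCCCGC. Hormad1 and Sycp3 hold both motifs, Taf7l and Fkbp6 only E-boxes, Tex19.1 only the E2F-type motif, and Dazl neither.
Hormad1 (chr3:95559427-95559726, plus strand): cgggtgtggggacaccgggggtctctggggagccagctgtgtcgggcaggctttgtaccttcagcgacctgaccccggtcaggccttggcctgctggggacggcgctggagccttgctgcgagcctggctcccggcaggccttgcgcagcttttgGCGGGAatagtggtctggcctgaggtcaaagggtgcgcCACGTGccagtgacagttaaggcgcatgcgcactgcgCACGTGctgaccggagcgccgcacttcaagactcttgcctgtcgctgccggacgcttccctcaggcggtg
Sycp3 (chr10:88459337-88459636, plus strand): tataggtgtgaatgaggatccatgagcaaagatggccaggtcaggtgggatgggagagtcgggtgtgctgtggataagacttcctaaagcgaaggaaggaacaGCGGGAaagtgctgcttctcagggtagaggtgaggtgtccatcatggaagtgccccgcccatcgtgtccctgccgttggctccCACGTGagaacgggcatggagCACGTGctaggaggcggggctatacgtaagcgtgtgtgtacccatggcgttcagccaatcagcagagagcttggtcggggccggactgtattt
Taf7l (chrX:134476441-134476740, minus strand): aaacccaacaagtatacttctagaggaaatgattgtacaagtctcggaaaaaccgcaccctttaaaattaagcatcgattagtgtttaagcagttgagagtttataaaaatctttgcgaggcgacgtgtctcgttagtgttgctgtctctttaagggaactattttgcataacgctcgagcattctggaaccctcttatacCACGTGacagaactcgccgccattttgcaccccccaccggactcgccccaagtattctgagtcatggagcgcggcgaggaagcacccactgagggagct
Fkbp6 (chr5:135349864-135350163, minus strand): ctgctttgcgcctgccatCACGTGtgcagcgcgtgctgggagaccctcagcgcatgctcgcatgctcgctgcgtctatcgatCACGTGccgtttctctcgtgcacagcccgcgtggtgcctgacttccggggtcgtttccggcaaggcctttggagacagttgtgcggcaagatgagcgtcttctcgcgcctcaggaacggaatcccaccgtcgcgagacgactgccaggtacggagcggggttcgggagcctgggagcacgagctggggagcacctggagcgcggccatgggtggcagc
Tex19.1 (chr11:121145893-121146192, plus strand): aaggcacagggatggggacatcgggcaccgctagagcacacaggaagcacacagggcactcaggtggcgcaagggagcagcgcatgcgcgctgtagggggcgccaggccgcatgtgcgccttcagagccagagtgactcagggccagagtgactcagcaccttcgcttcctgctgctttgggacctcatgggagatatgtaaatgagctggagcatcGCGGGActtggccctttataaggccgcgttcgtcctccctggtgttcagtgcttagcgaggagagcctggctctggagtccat
Dazl (chr17:50293571-50293870, minus strand): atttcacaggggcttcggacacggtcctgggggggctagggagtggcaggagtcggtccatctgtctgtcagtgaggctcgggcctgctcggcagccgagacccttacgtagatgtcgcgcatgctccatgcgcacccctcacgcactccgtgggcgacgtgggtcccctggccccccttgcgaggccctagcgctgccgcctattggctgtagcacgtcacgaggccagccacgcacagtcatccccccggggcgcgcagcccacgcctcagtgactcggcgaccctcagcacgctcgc
For comparison, Tdrd12 was higher and Tdrkh lower without being marked as silenced, and neither window holds either motif.
Tdrd12 (chr7:35537666-35537965, minus strand): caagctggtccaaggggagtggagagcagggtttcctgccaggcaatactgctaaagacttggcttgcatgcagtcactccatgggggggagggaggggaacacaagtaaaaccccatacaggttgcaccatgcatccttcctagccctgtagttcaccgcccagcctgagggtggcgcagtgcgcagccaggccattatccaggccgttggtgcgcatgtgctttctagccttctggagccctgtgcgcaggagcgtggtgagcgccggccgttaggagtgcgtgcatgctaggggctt
Tdrkh (chr3:94412994-94413293, plus strand): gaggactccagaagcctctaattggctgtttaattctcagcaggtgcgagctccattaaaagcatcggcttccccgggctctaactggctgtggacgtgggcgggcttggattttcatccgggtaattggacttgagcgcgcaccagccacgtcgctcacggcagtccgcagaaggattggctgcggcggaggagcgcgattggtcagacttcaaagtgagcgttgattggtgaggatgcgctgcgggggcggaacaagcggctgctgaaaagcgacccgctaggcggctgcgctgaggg

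Promoter windows were found for 47 members, 18 of the silenced genes and 29 of the others. An E-box stood in a window of 11 of the 18 silenced members (61.1%) and 7 of the 29 others (24.1%), against 8.09% of 27025 genes. The ratio of observed to expected CpG reached 0.6 in 16 of the 18 silenced members (88.9%) and 14 of the 29 others (48.3%), against 38.4% of all genes, and among all genes rich in CpG by this measure 11.9% held an E-box. GCGGGA stood in 9 of the 18 silenced members and 12 of the 29 others (41.4%), where 22.0% of all genes and 44.9% of the CpG-rich genes held it. Since the list of silenced genes was chosen partly on what is known of such promoters, these shares describe the list. A match is a run of letters and not a measured binding site.

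Members with CpG-rich windows were found on both sides of 0. Among members with a CpG-rich window, 13 of 14 counted silenced genes were higher and 0 lower, whereas 8 of 13 counted other genes were higher and 4 lower. With 10 fragments required in Diff–CONT, 8 of 9 silenced and 8 of 13 other genes were higher. Because the list was drawn up with earlier results known, this split is a description. Tdrkh, Tdrd5, Ddx25 and Kitl, the 4 genes past the cut-off as lower, all had CpG-rich windows, with ratios of 0.96, 1.11, 0.97 and 0.79. Of 16 counted members with an E-box, 14 were higher and 1, Ddx25, was lower, and of 23 counted members without one, 15 were higher and 4 lower, beside 34.8% higher and 36.6% lower of all genes. Of the 18 members with an E-box, 11 are on the silenced list, so the split by E-box is not separate from that list. With 10 fragments required in Diff–CONT, 10 of 12 members with an E-box and 11 of 17 without one were higher. Tex19.1 and Tuba3a were the silenced members below a CpG ratio of 0.6, at 0.58 and 0.47, and both were among the higher genes.

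**Figure D2:**
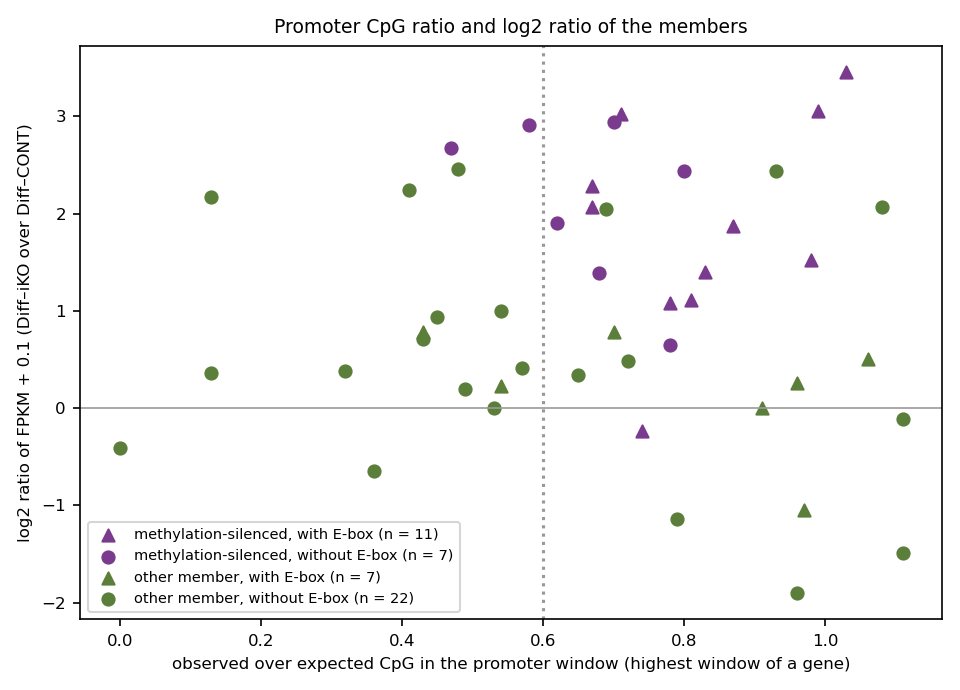
Observed over expected CpG in the promoter window (x axis, highest window of a gene) against the log2 ratio of FPKM + 0.1 of Diff–iKO over Diff–CONT (y axis) for the 47 members with a window. Purple marks methylation-silenced members, green the others, triangles an E-box, and the dotted line a CpG ratio of 0.6. To the right of that line the purple points lie above 0 except Brdt, and the green points lie on both sides.

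Among the piRNA genes, the PIWI gene Piwil2 and 5 of 6 biogenesis factors were higher, while the Tudor domain genes went both ways. Of the 16 piRNA members, 13 had at least 10 fragments, of which 9 were higher and 2 lower, where 34.8% of all genes were higher and 36.6% lower. With 10 fragments required in Diff–CONT, the counts were 7 and 2 of 10. The median log2 ratio was 1.15 over the 8 members whose mean FPKM reached 1, of which Piwil2 and Fkbp6 did so only through Diff–iKO, and -0.01 over all genes. Piwil2 (MILI), which binds piRNAs in fetal and adult male germ cells, was at 0.402 FPKM in Diff–CONT and 2.71 in Diff–iKO (57 and 287 fragments; log2 ratio 2.75, 2.34 to 3.19). Its relatives Piwil1 (MIWI) and Piwil4 (MIWI2) stayed at or under 0.127 FPKM in both libraries, on fewer than 10 fragments each. Piwil4 had 1 and 7 fragments, a log2 ratio of 3.23 with a wide counting interval from 0.27 to 8.72.

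The Tudor domain proteins bind methylated arginines of PIWI proteins and scaffold piRNA granules. Tdrd12, which is needed for secondary piRNAs, was at 3.32 and 16.1 FPKM (log2 ratio 2.27, 2.01 to 2.56), and had the highest Diff–iKO level of the piRNA genes. Tdrkh, a mitochondrial partner of the piRNA trimmer, went the other way, from 5.35 FPKM in Diff–CONT to 1.36 in Diff–iKO, 3.94-fold lower (log2 ratio -1.98, -2.56 to -1.41). Exons of Oaz3 on the opposite strand overlap Tdrkh over 2255 bases, and Oaz3 was itself at 0.262 and 0.0583 FPKM. Tdrd5, a factor of piRNA processing, was at 3.39 and 1.14 FPKM (log2 ratio -1.57, -1.95 to -1.21). Tdrd7, which is also used in the lens, was near equal at 9.65 and 8.95 FPKM (log2 ratio -0.11, -0.25 to 0.03). Tdrd1 and Tdrd9 were low, at 0.437 and 0.183 FPKM in Diff–iKO, and both had counting intervals above 0. Tdrd6 was at 0.0388 and 0.0390 FPKM, with an interval from -2.06 to 1.81 that leaves the direction undetermined at this depth.

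The biogenesis factors include the helicases Ddx4 (Vasa) and Mov10l1. Ddx4 was at 1.48 and 4.42 FPKM (114 and 255 fragments; log2 ratio 1.58, 1.26 to 1.91), and Mov10l1 at 0.155 and 1.14 FPKM (2.88, 2.15 to 3.69). Mov10, its somatic paralogue, was far more abundant, at 29.7 and 56.9 FPKM, and its log2 ratio of 0.94 (0.87 to 1.01) lay just under the 2-fold cut-off. Fkbp6, a cochaperone of PIWI loading, had 5 fragments in Diff–CONT and 45 in Diff–iKO (log2 ratio 3.73, 2.26 to 5.28). Mael was at 0.490 and 1.15 FPKM, and Pld6, the mitochondrial nuclease that cuts piRNA precursors, at 1.16 and 2.05. Both had counting intervals above 0, at 0.40 to 2.10 and 0.08 to 1.64. Asz1 had 0 and 2 fragments, at or under the floor of 3 fragments, and no fold is given.

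**Figure D3:**
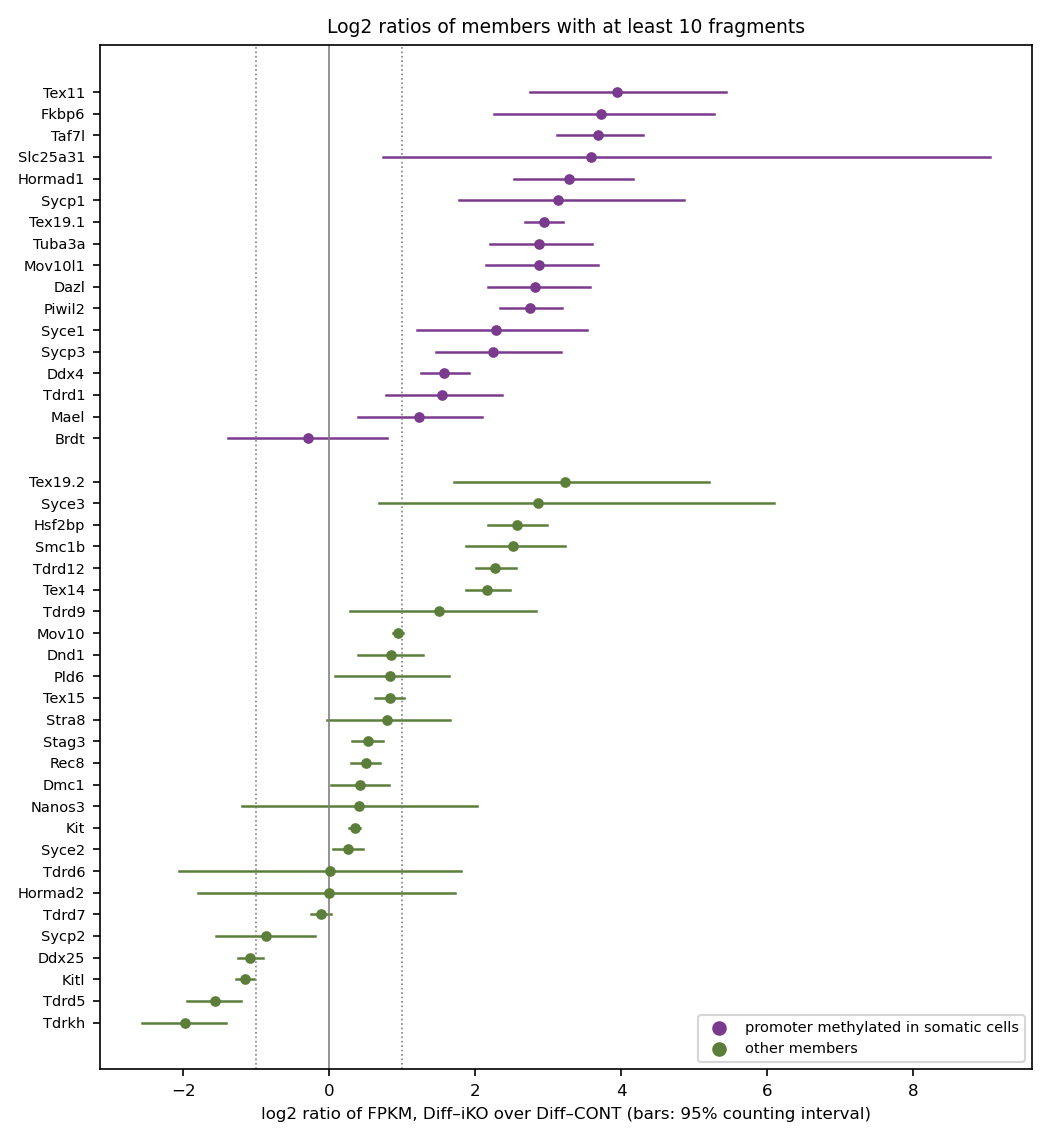
Log2 ratio of FPKM, Diff–iKO over Diff–CONT, for members with at least 10 fragments, with bars for the 95% counting interval and dotted lines at 2-fold. Methylation-silenced members are purple and the others green. Tex101, at 0 in Diff–CONT, is not drawn. Every purple bar except that of Brdt lies above 0, and 5 green bars lie below 0.

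Of the 20 meiosis genes, 16 could be counted, with 13 higher, 1 lower (Sycp2) and 2 across 0, beside the same 34.8% and 36.6% of all genes. Sycp1, Syce1, Syce3 and Tex11 were counted only through Diff–iKO, and without such genes 9 were higher and 1 lower of 11. Their median log2 ratio was 0.79 over 9 genes whose mean FPKM reached 1, and 4 of these (Sycp3, Syce3, Hormad1 and Hsf2bp) reached it only through Diff–iKO and so had to be higher. The largest differences were in the silenced genes and in Hsf2bp, Smc1b and Syce3. Syce2, Rec8, Stag3 and Dmc1, the meiosis members with FPKM of at least 2 in Diff–CONT, differed by less than 2-fold.

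In the synaptonemal complex, Sycp3, a lateral element protein, was at 0.570 and 2.71 FPKM (16 and 58 fragments; log2 ratio 2.25, 1.46 to 3.18). Exons of Chpt1 on the opposite strand overlap Sycp3 over 660 bases, at 8.38 and 10.5 FPKM (log2 ratio 0.33). Sycp1, which forms the transverse filaments, had 5 and 33 fragments, and the central element gene Syce1 had 9 and 33. Both were higher beyond counting error. Sycp2, the partner of Sycp3 in the lateral element, was lower instead, at 0.412 and 0.227 FPKM (log2 ratio -0.86, -1.55 to -0.20). Syce2 was the most abundant meiosis member, at 26.5 and 31.7 FPKM (log2 ratio 0.26, 0.05 to 0.47). Syce3 rested on 2 and 11 fragments (log2 ratio 2.86, 0.68 to 6.10), and Tex12 was listed at 0 in both libraries. FPKM of the 7 genes of this structure thus ranged from 0 to 26.5 in Diff–CONT and from 0 to 31.7 in Diff–iKO.

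Among the meiotic cohesins and axis proteins, Smc1b was at 0.207 and 1.19 FPKM (log2 ratio 2.52, 1.87 to 3.23). Rec8, the meiotic kleisin, was at 6.81 and 9.61 FPKM, and Stag3 at 2.93 and 4.23. Their log2 ratios of 0.50 and 0.53 were above 0 beyond counting error and under 2-fold. Rad21l, the other meiotic kleisin, had 0 and 1 fragments, so no fold is given. Hormad1 was given above, and its paralogue Hormad2 had 8 and 6 fragments (log2 ratio 0.00, -1.80 to 1.72).

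Genes of meiotic entry and recombination were mostly low. Stra8, which retinoic acid induces at the start of meiosis, was at 0.604 and 1.05 FPKM, and its interval from -0.03 to 1.65 reached 0. Spo11, which makes the meiotic DNA breaks, had 7 and 2 fragments. Mei1 had 2 and 2. Hsf2bp, a meiotic partner of BRCA2, was at 0.808 and 4.81 FPKM (log2 ratio 2.57, 2.18 to 2.98), the largest log2 ratio among the members outside the silenced list that were past the cut-off. It shares 54 exonic bases with Rrp1b on the opposite strand, at 17.3 and 18.0 FPKM. The recombinase gene Dmc1 was at 2.26 and 3.03 FPKM, and Tex15, which acts in meiotic repair and in piRNA-directed silencing, at 1.47 and 2.62. Tex11, an X-linked crossover factor, had 6 fragments in Diff–CONT and 69 in Diff–iKO (log2 ratio 3.94, 2.75 to 5.44).

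Of the 10 spermatogenic genes, 9 could be counted, with 7 higher, 1 lower and 1 across 0, beside 34.8% and 36.6% of all genes. Without Tex19.2, Tex101 and Slc25a31, which were counted only through Diff–iKO, 4 were higher and 1 lower of 6. The median log2 ratio was 2.67 over 5 genes, of which Tex14, Taf7l and Tuba3a passed the filter only through Diff–iKO, and with a pseudocount of 1 it was 1.71. Tex14, a protein of the bridges between germ cells, was at 0.866 and 3.91 FPKM (log2 ratio 2.17, 1.87 to 2.48). Tex19.2, the neighbouring paralogue of Tex19.1, had 4 and 28 fragments (log2 ratio 3.23, 1.71 to 5.20), and reads shared between such paralogues cannot be assigned with certainty. Tex101, a germ cell surface glycoprotein, was listed at 0 in Diff–CONT and had 13 fragments in Diff–iKO, at least 5.79-fold higher against a floor of 3 fragments in Diff–CONT. The lower limit of its counting interval, a log2 ratio of 2.03, allows a smaller difference. Slc25a31, a testis ADP/ATP carrier, had 1 and 9 fragments, a ratio of 12.0 with a log2 interval from 0.74 to 9.05. Tuba3a, a testis alpha-tubulin, was at 0.554 and 4.07 FPKM (log2 ratio 2.88, 2.2 to 3.60) and Tuba3b had 1 and 8 fragments, but the 2 genes are near-identical copies and their shares are uncertain.

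Not all spermatogenic genes were higher. Brdt, a testis bromodomain protein, had 21 and 13 fragments (log2 ratio -0.29, -1.39 to 0.79), the only counted silenced member that was not higher. Ddx25, a helicase of round spermatids, was at 5.57 and 2.63 FPKM, 2.12-fold lower (log2 ratio -1.08, -1.25 to -0.91). Adding a pseudocount of 1 brought the ratio to -0.85, under the cut-off.

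Of 5 counted genes of germ cell specification and maintenance, 3 were higher, 1 lower and 1 across 0, beside 34.8% higher and 36.6% lower of all genes. Their median of 0.58 over 4 genes, of which Dazl passed only through Diff–iKO, became -0.40 over the 2 genes whose mean FPKM reached 5. Dazl, an RNA-binding protein that licenses germ cells, was at 0.269 and 1.89 FPKM (22 and 118 fragments; log2 ratio 2.82, 2.18 to 3.57) and was the only silenced member of this group. Dnd1, a partner of the Nanos proteins, was at 2.03 and 3.65 FPKM (log2 ratio 0.85, 0.40 to 1.29), and it shares 140 exonic bases with Wdr55 on the opposite strand, at 19.9 and 22.4 FPKM. Nanos3 had 8 and 8 fragments, and Nanos2 had 3 and 1. The receptor Kit and its ligand Kitl, which act in germ cell survival and in many other tissues, lay on opposite sides of 0. Kit was at 20.6 and 26.1 FPKM (log2 ratio 0.35, 0.27 to 0.42) and Kitl at 13.3 and 6.01 (log2 ratio -1.15, -1.27 to -1.03).

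Markers of undifferentiated cells also differed between the libraries. Among 12 markers of undifferentiated ESCs, 10 were past the cut-off as higher and 0 as lower, against 6.73% and 8.39% of all genes, with a median log2 ratio of 2.09, and their summed FPKM was 500 in Diff–CONT and 3029 in Diff–iKO. Dppa5a was at 258 and 2115 FPKM, Pou5f1 at 60.8 and 247, and Tdgf1 at 49.8 and 259. Sox2 differed by less than 2-fold, and Tbx3 was slightly lower. The part of this shift in the germline genes was not tested. Of 7 primordial germ cell markers, 6 were also past the cut-off as higher, against the same 6.73% of all genes (median 1.84). These included Prdm14 at 0.872 and 3.85 FPKM, which passed only through Diff–iKO, Dppa3 at 10.2 and 46.1, and Tfap2c at 6.68 and 24.1. ESCs express most of that list, and which cells gave these values was not tested. Prdm1, the remaining gene of the list, was at 3.0 and 3.12 FPKM (log2 ratio 0.06, -0.18 to 0.29).

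Markers of later germ cells were close to absent. Of 9 spermatid markers, 5 were listed at 0 in both libraries, including the protamine genes Prm1 and Prm2, and the summed FPKM of all 9 was 0.153 in Diff–CONT and 0.294 in Diff–iKO. Of 10 mast cell and haematopoietic markers, which bear on Kit, 9 did not reach the FPKM minimum and 0 were past the cut-off, the summed FPKM was 7.33 and 3.98, and Cpa3, Tpsb2 and Fcer1a were at 0. Of the 5 with at least 10 fragments, 4 were lower and 0 higher, beside 36.6% lower and 34.8% higher of all genes. The lower ones included Tal1 with 113 and 10 fragments and Runx1 with 247 and 129. Of 9 trophoblast markers, which bear on Tex19.1, 4 were past the cut-off as higher (Tpbpa, Prl3d1, Prl2c2 and Ascl2) and 3 as lower (Cdx2, Eomes and Hand1). The shares over all genes were 6.73% and 8.39%. All 4 higher markers had FPKM under 2 in Diff–CONT and passed only through Diff–iKO. They had to be higher, so nothing is read from their count. The part of these marker lists in the results was not tested either. The members Taf7l and Tex11 lie on the X chromosome, where the median log2 ratio was 0.17 over 457 genes, compared with -0.01 on autosomes. Without the X-linked and Tuba3 members, 9 of 10 silenced members with at least 10 fragments in Diff–CONT were higher.

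The genes of 2 lists of regulators, PRC1.6 and the DNA methylation enzymes, differed by less than 2-fold in RNA, except Tet1. Dnmt3l, a methylation cofactor outside these lists, was past the cut-off as higher and is given below with other germline genes. Of the 15 genes of PRC1.6, 0 were past the cut-off, where 6.73% of all genes were past it as higher and 8.39% as lower. Beyond counting error 6 were higher and 7 lower, beside 34.8% and 36.6% of all genes with at least 10 fragments. The median log2 ratio of the PRC1.6 genes was -0.05. Its most abundant members Hdac2 and Hdac1 were at 88.4 and 72.4 FPKM and at 80.0 and 66.8, and Tfdp1 at 54.2 and 67.3. E2f6, which recognises E2F sites, was at 16.4 and 10.9 FPKM (log2 ratio -0.59, -0.74 to -0.44), while the E-box binding pair Mga and Max was slightly higher, at log2 ratios of 0.29 and 0.39. Of 11 enzymes of DNA methylation and its removal or of the H3K9 marks that act with it, 1 was past the cut-off. Tet1, an oxidase of methylated cytosine, was past it as higher, beside the same 6.73% of all genes. It was at 8.25 and 36.0 FPKM (log2 ratio 2.12, 2.07 to 2.18). The maintenance genes Dnmt1, at 53.5 and 58.9, and Uhrf1, at 58.5 and 54.8, were near equal. The de novo methyltransferase Dnmt3b was at 53 and 26.6 FPKM (log2 ratio -1.0, -1.07 to -0.92), just short of 2-fold lower.

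**Figure D4:**
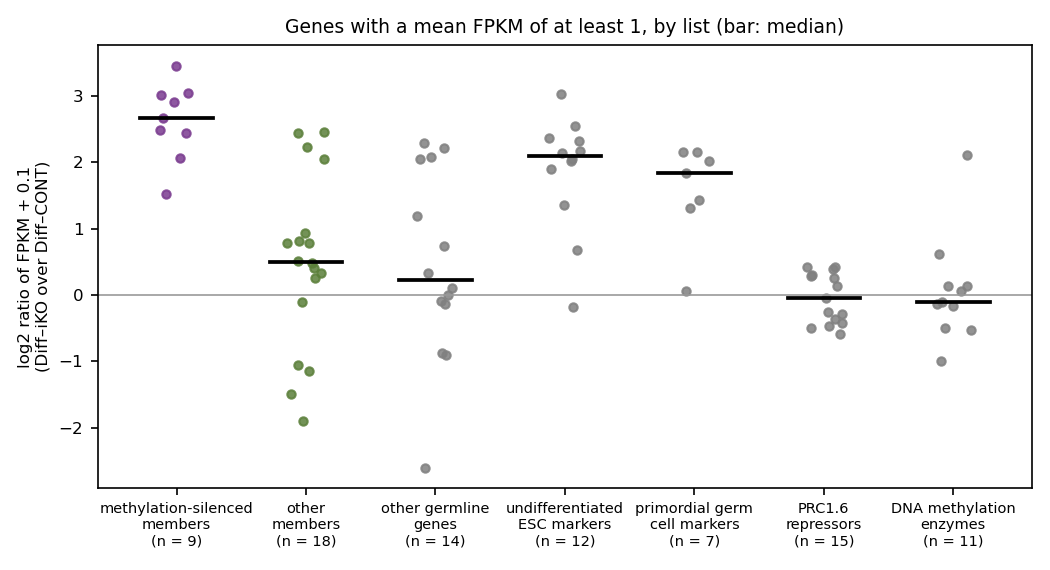
Log2 ratio of FPKM + 0.1, Diff–iKO over Diff–CONT, for the genes of each list whose mean FPKM reached 1, with a bar at the median. Medians are 2.67 for the silenced members, of which 7 of 9 passed the filter only through Diff–iKO, 0.50 for the other members, 0.22 for other germline genes, 2.09 for ESC markers, 1.84 for primordial germ cell markers, -0.05 for PRC1.6 genes and -0.10 for DNA methylation enzymes.

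Germline genes outside the 53 were found higher, lower and across 0. Of 32 such genes that were listed, 4 had no transcript length from which to recover fragments, and 23 had at least 10 fragments, with 13 higher, 3 lower and 7 across 0, beside 34.8% higher and 36.6% lower of all genes. Of those higher, Dpep3, Meiob, Spata22 and Msh4 had fewer than 10 fragments in Diff–CONT and were counted only through Diff–iKO. With 10 fragments required in Diff–CONT, 9 of 18 were higher and 3 lower, against 34.2% and 38.4% of all genes. The median log2 ratio was 0.22 over 14 genes. Dnmt3l, a cofactor of de novo methylation in germ cells and ESCs, was at 14.8 and 61.5 FPKM (log2 ratio 2.06, 1.90 to 2.22). Pnldc1, the piRNA trimmer that works with Tdrkh, was at 1.35 and 6.67 FPKM (2.30, 1.94 to 2.69), opposite to Tdrkh. Morc1, a transposon silencing factor of male germ cells, was at 1.79 and 7.90, and Rec114, a factor of meiotic break formation, at 1.24 and 6.50. The spermatogonial factor Zbtb16, which is also used in limb and blood, was lower, at 3.42 and 0.480 FPKM (log2 ratio -2.83, -3.27 to -2.42). Hspa2, at 5.57 and 7.04 FPKM, and Tcfl5, at 5.26 and 4.81, differed by less than 2-fold.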

How the data were processed

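Poly(A) RNA of differentiating mouse ESCs was analysed in 2 libraries, 1 per condition, grouped by the genotype label. The FPKM values were deposited by the authors, who per the labels and the paper's methods used STAR 2.7.9a on mm10 and Cuffquant and Cuffnorm of Cufflinks 2.2.1 on reads of a stranded kit; the gene annotation and strand setting are not given in the sources used here. The number of columns from other samples was 0.

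The log2 ratio of Diff–iKO to Diff–CONT was taken per gene without a pseudocount. The cut-off used the paper's thresholds, FC ≥ 2 and FPKM ≥ 2. The paper does not state in how many libraries the FPKM minimum had to be met or whether a pseudocount was added; here it was at least 1 library and none. List medians used a pseudocount of 0.1 and genes whose mean FPKM reached 1. Fragments were recovered from FPKM steps in 10484 genes with a single transcript length, with a mean fragment length of 190 bases; a value counted as whole within 0.1 of a multiple, which chance gives for 20% of values. Fragments of a gene used its shortest annotated RefSeq transcript, so they are approximate for the 18 members with several lengths. Intervals (exact Clopper-Pearson, 95%) cover counting error only, and the floor was 3 fragments. Promoters were taken from RefSeq (GRCm38.p6), and coordinates from GENCODE vM21; windows were not found for 6 members.

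All 53 members were named, in full where the mean FPKM was at least 1 or the gene was past the cut-off. Of the other lists, the most abundant genes and genes past the cut-off were eligible to be named, and further genes named from them were chosen after their values were seen. The members and lists were chosen with earlier results of these data known. The steps were tested on simulated data. Alternatives were other pseudocounts, FPKM and fold minimums, scalings and lists. The software was Python 3.11.15 with scipy 1.17.1, matplotlib 3.10.9, pandas 2.3.3 and numpy 2.4.6.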

Additional observations from a re-analysis of the deposited data

How the results depend on the processing

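With 1 library per condition, no library could be left out. The count of higher members moved from 10 to 18 at an FPKM minimum of 1 and to 20 at 0.5, and the count of lower members from 4 to 0 at FC ≥ 4. A pseudocount of 1 took the median of the silenced members from 2.67 to 1.40 and that of the spermatogenic members from 2.67 to 1.71, as it shrinks the ratios of low genes. The median of the germ cell specification members changed sign, from 0.58 to -0.40, over the 2 genes whose mean FPKM reached 5. Of the 47 member ratios, 0 of those past the cut-off changed sign, and Ddx25 alone lost it (pseudocount 1). The direction of Tdrd6 and Hormad2, with log2 ratios of 0.01 and 0.00, was not stable, since both became -0.09 when the libraries were scaled to the same FPKM sum. Requiring 10 fragments in Diff–CONT alone, an alternative chosen after seeing the data, took the silenced members higher beyond counting error from 17 of 18 to 11 of 12. Leaving out the X-linked members or the Tuba3 pair, alternatives chosen after seeing the data, moved no count or median by over 1.5-fold. Depth limits the members under 10 fragments, of which Piwil4 and Tuba3b alone had a counting interval that did not reach 0.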
